A study of Mus musculus with 25 samples.

Results

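The histone genes were taken by name, so not every member need be replication-dependent, and a pseudogene, Hist3h2bb-ps, is included. Every symbol of the deposited table that begins with Hist1h, Hist2h, Hist3h or Hist4h was taken, which gave 68 of 23366 symbols. Of these, 59 reached a value of 1 in at least 3 of the 25 columns and 9 did not. The 68 comprised 6 H1, 18 H2A, 19 H2B, 12 H3 and 13 H4 genes, of which 5, 16, 16, 12 and 10 passed that filter. The Hist1 cluster held 54 of them, the Hist2 cluster 10, Hist3 3 and Hist4 1. Their values were measured by bulk RNA sequencing of CD8+ T cells that had infiltrated B16F10 melanoma, a transplantable mouse skin tumour, in C57BL/6 mice. The 4 groups were wild type (16 libraries), Prdm1 cKO (3), c-Maf cKO (3) and Prdm1/c-Maf cDKO, which lacks both genes (3). The term cKO stands for a conditional knockout: the gene is removed only where a Cre enzyme is active. Which Cre was used, the ages of the mice and the number of mice behind a library are not stated in the labels. Every group carried the same tumour and no group was tumour-free. Libraries came from lysates of small bulks of cells by an adapted SMART-Seq 2 method, which in its usual form primes on the poly(A) tail of RNA.

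Replication-dependent histone genes make the core histones H2A, H2B, H3 and H4 and the linker histone H1 that package newly copied DNA. They lie in clusters of many near-identical copies, are transcribed mainly in S phase, and are the main animal mRNAs that end in a short stem-loop bound by Slbp in place of a poly(A) tail. Some of these genes can also give polyadenylated transcripts, most often in cells that have left the cycle.

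The RNA 3' stem-loop is shown first because it is the element that sets these messages apart from other mRNAs. A search of the longest GENCODE M21 transcript of each member (GRCm38, not the build of the authors' alignment) for the letters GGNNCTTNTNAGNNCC, on the transcript strand only, found it in 45 of 68 members, against 0.355% of 58797 protein-coding transcripts. Among the 45, the most frequent stem-loop was carried by 25 members, the next by 7 and the third by 6. The windows below give 5 bases before the stem-loop, the stem-loop itself in capitals and 5 bases after it, for abundant members and for members described later.
Hist1h2ao: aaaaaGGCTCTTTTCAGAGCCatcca
Hist2h3c2: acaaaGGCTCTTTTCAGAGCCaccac
Hist1h2ag: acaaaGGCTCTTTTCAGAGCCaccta
Hist1h2bj: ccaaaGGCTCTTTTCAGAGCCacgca
Hist1h2bg: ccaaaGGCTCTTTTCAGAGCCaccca
Hist1h3c: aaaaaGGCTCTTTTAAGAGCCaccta
Hist1h3d: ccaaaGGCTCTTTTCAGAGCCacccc
Hist1h4c: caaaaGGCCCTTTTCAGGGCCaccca
Hist1h4d: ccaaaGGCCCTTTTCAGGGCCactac
Hist2h4: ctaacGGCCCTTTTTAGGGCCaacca
The 4 H2A and H2B windows hold the same 16-base stem-loop. The window of Hist1h3c differs from that of Hist1h3d inside the loop, and the H4 windows carry other stem letters. No match in the other 23 members says only that these letters are not in the transcript model used, and some models stop at the end of the coding part.

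A poly(A) signal, AATAAA or ATTAAA on the transcript strand, lay in the last 60 bases of 16 of the 68 transcript models, against 51.0% of protein-coding transcripts. Among them were Hist2h4, Hist1h1c, Hist1h4i, Hist3h2a and Hist4h4. The annotated transcript of Hist2h4 runs on for 1257 bases past the stem-loop, that of Hist1h1c for 840 and that of Hist1h2ag for 23. Summed over the means of all libraries, the 16 members with the signal made up 8.20% of the histone signal, the 32 with a stem-loop and no signal 62.1%, and the 20 with neither 29.7%.

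Promoters are shown for members whose level differed between genotypes, since these members share a cluster and some share a promoter. Of the 68 members, 62 had a promoter in RefSeq's table for GRCm38.p6. The letters CCAAT, on either strand, occurred in the 250 bases before the start of 51 of 62 members (82.3%) and of 34.5% of 27025 promoters of all genes. TATAAA, on either strand, occurred in 29 of 62 (46.8%) against 12.97%, and the octamer ATTTGCAT, on either strand, in 13 of 62 (21.0%) against 1.61%. The octamer was found in 7 of 18 H2A and 6 of 16 H2B promoters and in 0 of the 6 H1, 10 H3 and 12 H4 promoters. CCAAT was found in all 18 H2A and all 16 H2B promoters and in 3 of 12 H4 promoters. These letters are matches, not measured binding, and they were read in a build other than that of the alignment. In the sequences below, capitals mark these 3 motifs on either strand, and no match overlaps another.
Hist1h1b, chr13:21780626-21780875, minus strand: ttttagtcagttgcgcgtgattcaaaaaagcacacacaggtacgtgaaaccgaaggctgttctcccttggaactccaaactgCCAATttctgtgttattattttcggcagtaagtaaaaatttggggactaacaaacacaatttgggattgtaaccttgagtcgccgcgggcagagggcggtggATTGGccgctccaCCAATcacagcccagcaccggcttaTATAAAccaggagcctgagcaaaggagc
Hist1h2ag, chr13:22042950-22043199, minus strand: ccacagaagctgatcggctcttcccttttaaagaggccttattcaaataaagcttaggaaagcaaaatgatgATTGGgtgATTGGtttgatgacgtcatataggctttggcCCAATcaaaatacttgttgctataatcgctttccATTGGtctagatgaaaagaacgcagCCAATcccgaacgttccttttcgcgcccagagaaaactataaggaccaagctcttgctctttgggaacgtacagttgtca
Hist1h2bg, chr13:23571150-23571399, plus strand: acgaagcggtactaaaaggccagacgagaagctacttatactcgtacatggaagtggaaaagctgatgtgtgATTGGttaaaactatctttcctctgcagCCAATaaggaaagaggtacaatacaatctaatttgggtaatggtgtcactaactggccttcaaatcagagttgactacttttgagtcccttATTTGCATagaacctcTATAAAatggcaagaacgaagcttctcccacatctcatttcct
Hist1h4c, chr13:23698459-23698708, minus strand: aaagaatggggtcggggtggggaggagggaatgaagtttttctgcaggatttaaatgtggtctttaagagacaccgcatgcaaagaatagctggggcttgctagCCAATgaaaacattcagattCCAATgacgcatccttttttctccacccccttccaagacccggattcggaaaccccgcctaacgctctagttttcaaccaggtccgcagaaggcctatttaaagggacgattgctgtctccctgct
The promoter of Hist1h2bj is not printed because its 250 bases overlap those of Hist1h2ag by 248 bases on the opposite strand: the H2A and the H2B gene start away from each other from one shared stretch. That stretch holds 5 CCAAT matches, the promoter of Hist1h1b 3 and those of Hist1h2bg and Hist1h4c 2 each.

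The values are a signal normalised by the authors, on a scale the sources used here do not state, so the read depth behind a value is unknown. Column totals ran from 389650 to 475956, and 12749 to 15161 genes were above 0 per library. Libraries are named here by the code in their column name. The columns stand in 3 unbroken runs, each of wild-type columns followed by 1 knockout group: run 1 holds 7 wild-type and the Prdm1 cKO libraries, run 2 holds 4 wild-type and the c-Maf cKO libraries, and run 3 holds 5 wild-type and the Prdm1/c-Maf cDKO libraries. The labels do not call these runs batches. All codes of run 1 begin with A. In run 2 the codes begin with B, except c-Maf cKO library C1. In run 3 the wild-type codes begin with B and the cDKO codes are C2, A1 and A2, so no cDKO library shares a letter with the wild type of its run. What the letter stands for is not stated. Prdm1 was at 4.71, 0.41 and 3.66 in Prdm1 cKO and at 4.69, 1.18 and 3.27 in the cDKO, below the wild-type range of 6.45 to 24.85. Maf was low everywhere, at 0, 0 and 0.93 in c-Maf cKO, at 0, 0.18 and 0.03 in the cDKO and at 0.03 to 0.95 in wild type, so its level is a weak check of the c-Maf label, and library C1, with 0.93, is a library labelled c-Maf cKO. The summed level of 7 CD8 T cell markers ran from 1133 to 3181, with none of the 7 at 0 throughout a group. Nothing in the labels says which libraries come from separate mice, and the p-values then reflect library-to-library spread, which may be technical.

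Histone signal was concentrated in few members. Hist1h2ao, an H2A gene, had the highest mean over the 25 libraries, 231, followed by the H3 genes Hist2h3b with 144 and Hist2h3c2 with 64.0. These 3 members made up 58.2% of the summed mean of all 68. The next were Hist1h4d with 32.8, Hist1h2ab with 28.6, Hist2h4 with 22.1, Hist2h2aa1 with 18.8, Hist1h2ak with 17.4, Hist1h2bc with 17.3, Hist1h3i with 16.3, Hist1h2ap with 10.1 and Hist1h1c with 9.27. By histone type, H2A took 44.8% of the summed mean, H3 33.9%, H4 10.7%, H2B 7.16% and H1 3.44%. Whether the deposited scale is per transcript length is not stated, so the order between genes is that of the deposited values only. The library method in its usual form primes on the poly(A) tail, which most of these messages lack. What part of the histone mRNA the values hold is therefore not known.

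In all, 11 members had a mean of 10 or more, 41 a mean from 1 to under 10, and 16 a mean under 1. There were 31 members above 0 in every library, and 1, the H2A gene Hist1h2aa, was at 0 in all 25. Just inside the filter lay Hist3h2bb-ps, an H2B pseudogene, with a third-highest value of 1.55 and 4 columns at 1 or more, Hist1h2bf, with 1.37 and 8 columns, and Hist1h2bq and Hist1h2br, with 1.44 and 7 columns each. Just outside it lay Hist1h2bp with 0.90 and Hist1h4f with 0.77, each with 2 columns at 1 or more.

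Many members cannot be told from a neighbour by sequence. Cut into 50-base windows, 6.50% of the transcript of Hist1h2ao was found in no other member, and 93.5% of its windows lay in Hist1h2ap. Of Hist2h3b, 20.3% of windows were unique and 79.7% lay in Hist2h3c2. In 30 of 68 members fewer than 50% of windows were unique, and in 11 more than 90% were. Hist1h2bq and Hist1h2br had identical values in all 25 columns, and 97.3% of the windows of Hist1h2bq lay in Hist1h2br. Values of single members of such pairs are uncertain, since the reads could be split between copies. Hist1h2ap was at 0 in 11 libraries and reached 68.36 in wild-type library B9 and 60.44 in c-Maf cKO library B10, while Hist1h2ao was above 0 in all 25.

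The summed histone signal of a library ranged from 296 to 1418. In run 1 the 7 wild-type libraries lay between 382 and 962, with a median of 549.97, and the 3 Prdm1 cKO libraries were at 536, 296 and 310. In run 2 the 4 wild-type libraries lay between 1122 and 1418 and the 3 c-Maf cKO libraries at 854, 742 and 941. In run 3 the 5 wild-type libraries lay between 613 and 922 and the 3 cDKO libraries at 1001, 423 and 416. Against the wild type of their own run, 2 of the 3 Prdm1 cKO libraries were therefore below every wild-type library, all 3 c-Maf cKO libraries were, and in the cDKO 2 were below and library C2 was above. C2 is the one cDKO library whose code does not begin with A.

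**Figure D1:**
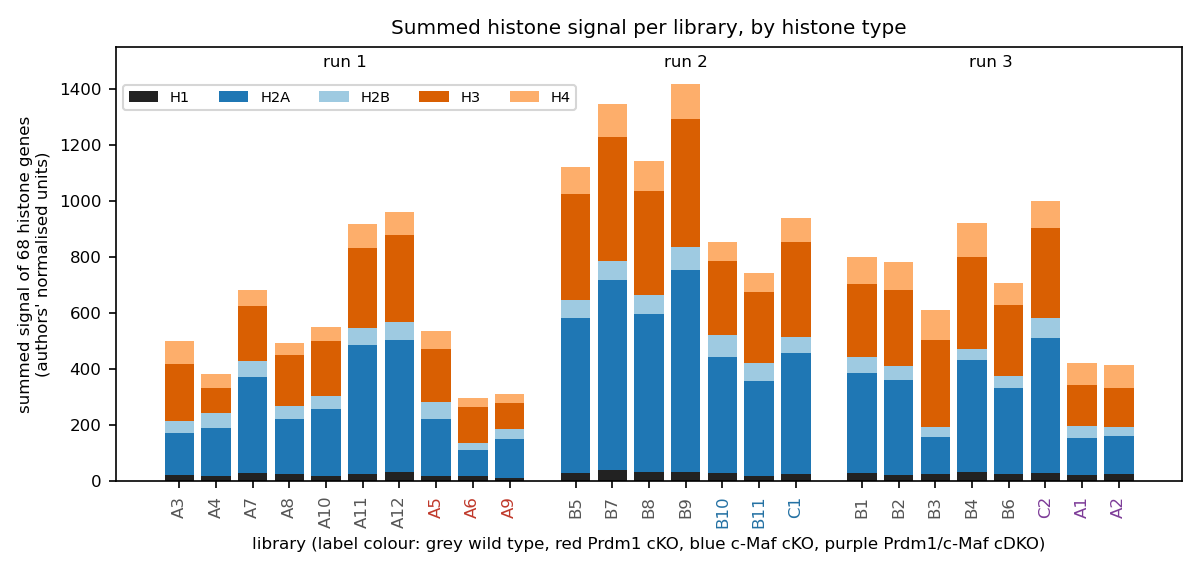
Summed signal of the 68 histone genes per library (vertical axis, authors' normalised units from 0), stacked by histone type, with libraries in the 3 column runs and label colours for genotype. The highest bars are the 4 wild-type libraries of run 2, at 1122 to 1418, and the lowest is Prdm1 cKO library A6, at 296.

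Averaged over libraries, the sum was 834 ± 307 in wild type (SD, n = 16), 381 ± 135 in Prdm1 cKO (SD, n = 3), 846 ± 99.6 in c-Maf cKO (SD, n = 3) and 613 ± 336 in the cDKO (SD, n = 3). With the libraries rescaled to 4 CD3 genes the means were 784 in wild type, 476 in Prdm1 cKO, 676 in c-Maf cKO and 698 in the cDKO, so c-Maf cKO turned from above the wild-type mean to below it. As a share of the column total the sum was 0.0894 to 0.308% in wild type and 0.0637 to 0.125% in Prdm1 cKO. The types did not move in equal steps. Summed H2A signal ranged from 133 to 720 over the wild-type libraries and summed H3 from 89.0 to 456, whereas summed H1 ranged from 17.5 to 38.9. Wild-type library B3 had the lowest H2A sum of the wild-type libraries, 133, with an H3 sum of 309. The same library had the lowest summed CD8 T cell markers of all 25, 1133, and the highest summed melanoma markers, 3116.

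Within wild type, run 2 stood apart in the summed level, while runs 1 and 3 overlapped. The 4 libraries of run 2 were above all other wild-type libraries in the sum. In the fit across all genes, 337 of 12251 genes (2.75%) differed between the 3 runs by limma's F test at an adjusted p under 0.05, and 5 of the 59 members did: Hist1h2bk (adjusted p = 0.000895), Hist1h2ae (0.0158), Hist1h3c (0.0240), Hist2h4 (0.0329) and Hist1h4d (0.0484), all by limma. For the H2B gene Hist1h2bk the wild-type means were 0.931 in run 1, 11.2 in run 2 and 3.94 in run 3. For the H3 gene Hist1h3c they were 6.72, 12.9 and 4.45. For the H4 gene Hist2h4 the order was another, 14.4, 21.6 and 38.3. Over the 59 members, run 2 was above run 1 in 53, with a median log2 difference of 0.61, and run 3 above run 1 in 31, with a median of 0.06. Each comparison with all 16 wild-type libraries is therefore given also with the run as a term in the model.

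In Prdm1 cKO, 8 of the 59 members were lower than in wild type and 0 were higher, by limma on log2(value + 1) at an adjusted p under 0.05 over all genes. That is 13.6% of the members lower, where 1.87% of all 12251 genes were lower and 1.58% higher. All 8 lie in the Hist1 cluster, which holds 46 of the 59 tested members. They were the linker histone gene Hist1h1b, the H2A gene Hist1h2ag and the H2B genes Hist1h2bj and Hist1h2bg. The others were the H3 genes Hist1h3h, Hist1h3d and Hist1h3c, and the H4 gene Hist1h4c. The median log2 difference of the 59 was -0.74, against -0.02 over all genes, and 51 of 59 were below 0. By type, the lower calls were 1 of 5 H1, 1 of 16 H2A, 2 of 16 H2B, 3 of 12 H3 and 1 of 10 H4 genes. At an unadjusted p under 0.05 there were 28 members and 2529 genes in all.

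The linker histone gene Hist1h1b, whose product binds DNA where it enters and leaves the nucleosome, was at 0.28, 0 and 0.77 in the 3 Prdm1 cKO libraries. Wild type ran from 0.41 to 11.55 with a median of 5.57. A single wild-type library, A3 with 0.41, lay within the knockout range. The difference was -2.27 on the log2(value + 1) scale (SE 0.50, limma adjusted p = 0.0167). All windows of this gene were unique among the members.

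The H2A and H2B genes that share a promoter were both lower. Hist1h2ag was at 2.15, 0.6 and 0.6 in Prdm1 cKO and at 1.25 to 22.2, median 5.92, in wild type, a log2 difference of -1.82 (SE 0.44, limma adjusted p = 0.0241). Hist1h2bj was at 0.27, 1.67 and 0 in Prdm1 cKO and at 1.03 to 10.72, median 6.26, in wild type, a log2 difference of -1.96 (SE 0.45, limma adjusted p = 0.0197). In both genes the highest knockout library overlapped the lowest wild-type libraries. Of the windows of Hist1h2ag 21.1% were unique, and of Hist1h2bj 40.6%. The other H2B gene, Hist1h2bg, was at 6.41, 0.26 and 2.47 against 2.59 to 18.34, median 8.795, in wild type (log2 difference -1.60, SE 0.37, limma adjusted p = 0.0202). Library A5, with 6.41, was inside the wild-type range.

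Among H3 genes, Hist1h3h was at 1.39, 0 and 0 in Prdm1 cKO and at 0.88 to 12.25, median 5.34, in wild type (log2 difference -2.17, SE 0.53, limma adjusted p = 0.0241). Its sequence is 6.08% unique among the members, so its value can include reads of other H3 copies such as Hist1h3i. Hist1h3d was listed at 0 in all 3 Prdm1 cKO libraries and at 0 to 6.53, median 2.545, in wild type (limma adjusted p = 0.0368). In wild type it was itself at 0 in libraries A7 and B3, so the groups overlapped at the floor. Hist1h3c was at 1.5, 2.94 and 2 against 2.89 to 15.25, median 6.185, in wild type (log2 difference -1.32, SE 0.34, limma adjusted p = 0.0301).

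The H4 gene Hist1h4c was at 2.38, 1.29 and 0.69 in Prdm1 cKO and at 2.06 to 8.52, median 5.655, in wild type (log2 difference -1.34, SE 0.31, limma adjusted p = 0.0197). Against the 7 wild-type libraries of its own run, which held 3.79 or more, all 3 knockout libraries were lower. It was the only one of the 59 members of which this was true, where 2.29% of all genes tested lay wholly below the wild type of that run, and 0 members lay wholly above it against 1.65% of genes.

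**Figure D2:**
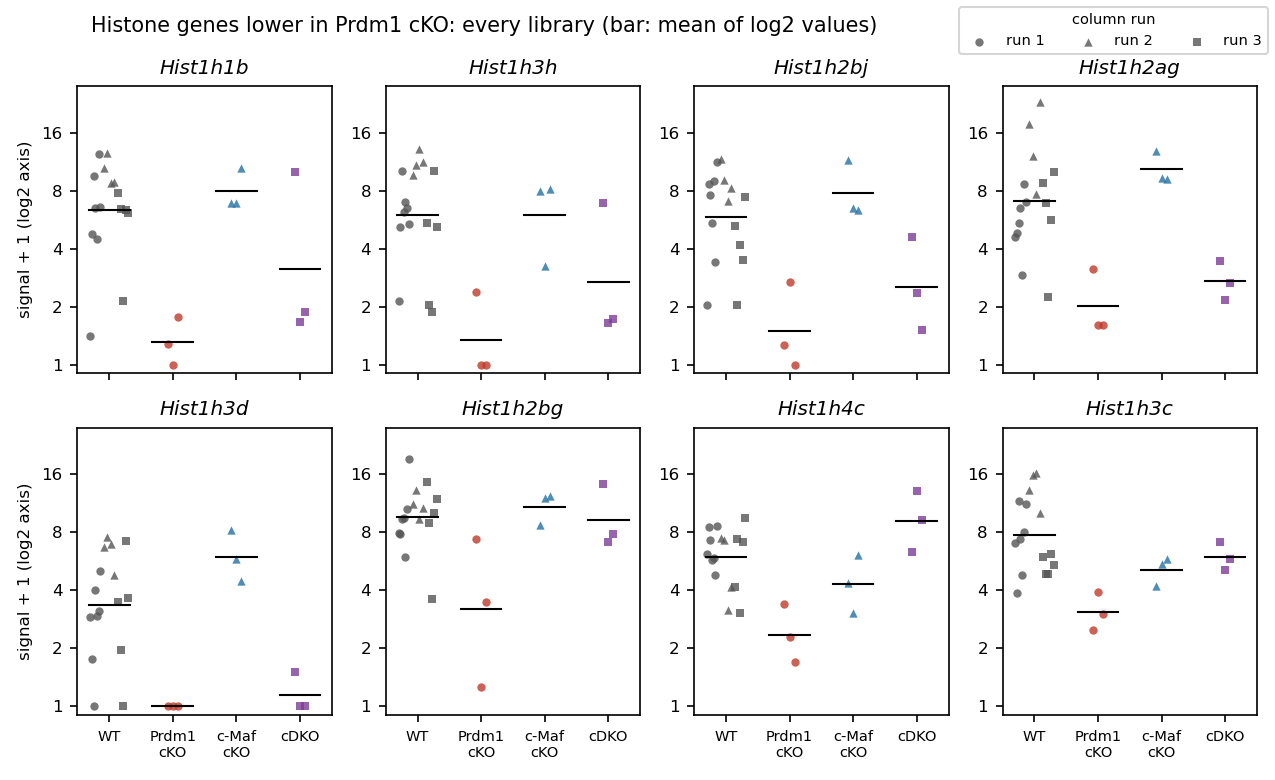
Signal plus 1 on a log2 axis in every library for the 8 histone genes lower in Prdm1 cKO, by genotype, with marker shape for column run and a bar at the mean of the log2 values. Prdm1 cKO libraries overlap the lowest wild-type libraries, and Hist1h4c is higher in the cDKO than in Prdm1 cKO.

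The most abundant members did not pass the test in Prdm1 cKO. Hist1h2ao was at 128.4, 30.11 and 73.93 against 53.09 to 510.53, median 251, in wild type, a log2 difference of -1.74 (SE 0.62, limma adjusted p = 0.108). Hist2h3b was at 108.7, 71.71 and 51.65 against 41.81 to 260.3 (log2 difference -0.99, SE 0.36, limma adjusted p = 0.110). Hist1h4d, at 24.31, 8.74 and 10.42 against 12.69 to 67.41, stood at the threshold (log2 difference -1.32, SE 0.38, limma adjusted p = 0.0501). The wild-type spread of these genes was wide: Hist1h2ao alone ran from 53.09 in B3 to 510.53 in B7. At the other end, 2 of the 12 members with the highest means had a positive difference, Hist1h2bc with 0.64 (SE 0.31, limma adjusted p = 0.237) and Hist2h2aa1 with 0.25 (SE 0.24, limma adjusted p = 0.612). Neither passed the test. Hist1h2bc was at 43.28 in library A5 and at 16.29 and 18.33 in the others.

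Grouped by the transcript end, 6 of 30 tested members with a stem-loop and no poly(A) signal were lower in Prdm1 cKO, with a median log2 difference of -0.82. Of the 12 with a poly(A) signal 0 were called, with a median of -0.21, and of the 17 with neither 2 were lower, with a median of -0.74. The 3 groups also differ in level, and the difference between them was not tested. Among the members with the signal, Hist1h1c was at 11.22, 11.1 and 4.99 against 6.71 to 13.03 in wild type, and Hist3h2a at 12.15, 8.61 and 13.96 against 5.88 to 14.17. The log2 differences of Hist1h1c and Hist3h2a were -0.07 and 0.45. Other members of this class fell further without being called. The difference was -1.07 for Hist2h4 (SE 0.50, limma adjusted p = 0.227) and -0.79 for Hist1h4i (SE 0.36, limma adjusted p = 0.213).

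**Figure D3:**
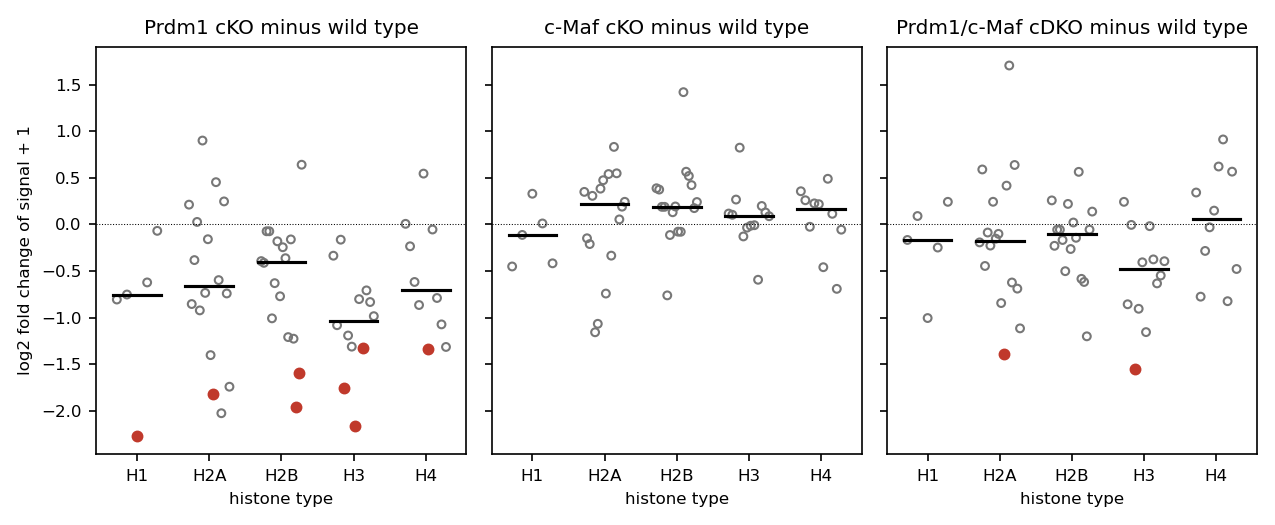
Difference from wild type in mean log2(signal + 1) for the 59 tested histone genes (points, ordered within a type by mean level), by histone type, for Prdm1 cKO, c-Maf cKO and the cDKO, with filled points called by limma and bars at the median of each type. In Prdm1 cKO the medians of all 5 types lie below 0, and 8 points are filled.

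These calls rest on few libraries. With the column run in the model 3 members were lower in Prdm1 cKO, Hist1h4c (log2 difference -1.48, SE 0.34, limma adjusted p = 0.0455), Hist1h2bj (-1.98, SE 0.45, limma adjusted p = 0.0455) and Hist1h3c (-1.22, SE 0.27, limma adjusted p = 0.0420), and the median of the 59 was -0.46. Without library A9 0 were called (50 of 59 below 0, median -0.65), without A6 1 was, Hist1h2bj, without wild-type library A4 13 were and without B3 12 were. Over all genes, the share called lower moved with them: it was 0.302% with the column run in the model, 0.403% when A9 was left out and 0.312% when A6 was, and 2.74% and 3.33% when A4 or B3 was.

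Markers of other cells moved with this result. Of 13 macrophage and monocyte markers, Emr1 alone was higher in Prdm1 cKO (limma adjusted p = 0.0365), and the median log2 difference of the 13 was 2.57. Their summed level was 1074 to 3138 in Prdm1 cKO, 24.1 to 1670 in wild type, 103 to 1011 in c-Maf cKO and 36.9 to 230 in the cDKO, and none of the 13 was at 0 throughout any group. The summed level of 9 dendritic cell markers was 1496 to 6242 in Prdm1 cKO and 55.1 to 2562 in wild type, with 0 of 9 called and Clec9a at 0 in all 3 Prdm1 cKO libraries. The summed level of 6 erythroid markers was 221 to 1841 in Prdm1 cKO and 1.38 to 1568 in wild type; 0 of the 5 tested were called there. With the scores of the macrophage and erythroid lists as covariates 0 members and 7 of 12251 genes were called in Prdm1 cKO, the largest adjusted p of the 8 being 0.547, while their log2 differences ran from -2.47 to -1.25 and the median of the 59 was -0.35. With all libraries rescaled to 4 CD3 genes, which moved the median of all genes to 0.28, 6 of the 8 were still called lower. Hist1h4c and Hist1h3c were not (limma adjusted p = 0.0656 and 0.0778). The share of all genes called in that fit is not given here, so this count has no baseline. In bulk samples, fewer T cells in a library and less RNA per cell cannot be told apart.

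In the Prdm1/c-Maf cDKO, 2 of 59 members were lower than in wild type and 0 higher (3.39% of the members), where 6.85% of all genes were lower and 5.09% higher. They were the H3 gene Hist1h3d and the H2A gene Hist1h2ag, both also called in Prdm1 cKO; both comparisons use the same wild-type libraries. Hist1h3d was at 0.51 in C2 and listed at 0 in A1 and A2 (log2 difference from wild type -1.56, SE 0.47, limma adjusted p = 0.0301). Hist1h2ag was at 2.46, 1.17 and 1.65 in C2, A1 and A2 (-1.39, SE 0.44, limma adjusted p = 0.0396). The median of the 59 was -0.17, against -0.03 over all genes, and with the libraries rescaled to the CD3 genes it was -0.04 against 0.23. With the column run as a term 0 members were called, where 3.58% of all genes were lower and 4.39% higher.

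The cDKO libraries were unlike each other for several members. Hist1h2ao was at 334.65 in C2 and at 53.2 and 60.02 in A1 and A2, and Hist1h1b at 9.02, 0.66 and 0.88. Hist1h3h was at 5.88, 0.65 and 0.73, and Hist1h2bk at 5.86, 0 and 1.09. C2 was within the wild-type range for these 4 genes. A1 and A2 lay at the low end of that range, and in Hist1h3h below its lowest value of 0.88. Other members were even: Hist1h4d was at 22.3, 23.45 and 27.18, and Hist1h3c at 6.16, 4.1 and 4.82. Without C2, 5 members were lower than in wild type, Hist1h1b, Hist1h3h, Hist1h3d, Hist1h2bj and Hist1h2ab, with a median of -0.51 over the 59. Without A1 or without A2 0 members were called, where 6.04% and 4.2% of all genes were. Without A4 5 members were called (8.47%), where 13.1% of all genes were, and without A11, B7, B8 or B1 1 member was. Leaving out 1 library at a time gave 512 to 1705 calls over all genes. C2 also had the lowest array quality weight of all libraries, 0.472, where A1 had 1.62 and A2 1.47. With such weights 12 members were lower (20.3%) and 2, Hist2h2aa1 and Hist1h4c, were higher (3.39%), where 12.8% of all genes were lower and 8.66% higher. Without C2 6.48% of all genes were lower.

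In the cDKO, the shares of members wholly above or below the wild type of their run were no higher than over all genes. Hist2h2aa1, an H2A gene of the Hist2 cluster, was at 21.53, 27.2 and 30.89 against 9.71 to 35.65 in wild type (log2 difference 0.64, SE 0.24, limma adjusted p = 0.0870). Against the 5 wild-type libraries of their own run, all 3 cDKO libraries were above in Hist2h2aa1, Hist1h2ap and Hist2h2ac (3 of 59 members, 7.37% of all genes). All 3 were below in Hist1h4d, Hist1h1e and Hist1h3a (3 of 59 members, 5.38% of all genes). Hist1h2ap was at 0 to 0.01 in that wild type, and 93.1% of its windows lie in Hist1h2ao. Summed with Hist1h2ao, it was at 354 in C2, 55.9 in A1 and 69.3 in A2, against 53.1 to 275 in that wild type. Hist2h2ac was low throughout, at 1.57, 3.3 and 2.16 in C2, A1 and A2 and at 0.39 to 1.27 in that wild type. Markers of several cell types moved with the cDKO. Of the CD8 T cell markers Cd3g was lower (log2 difference -0.90, limma adjusted p = 0.0399; 1 of 7), and of the dendritic cell markers Zbtb46 (-1.23, limma adjusted p = 0.00883; 1 of 9). Cd79b, of 3 B cell markers tested, was higher (1.10, limma adjusted p = 0.0455), as was Pecam1, the only fibroblast and endothelium marker of 5 that was tested (1.08, limma adjusted p = 0.0120). Of the erythroid markers, 3 of 5 tested were higher, with a summed level of 461 in C2, 2270 in A1 and 4240 in A2. The part of these markers in the histone values was not tested beyond the fit with macrophage and erythroid scores, in which 1 member was called lower. In that fit 2.91% of all genes were lower.

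In c-Maf cKO 0 of 59 members were called by limma, as were 0 of 12251 genes (0%), with 1 member and 755 genes at an unadjusted p under 0.05. That member was the H2B gene Hist1h2bn, at 5.52, 10.01 and 6.11 against 0 to 6.25 in wild type (log2 difference 1.42, SE 0.55, limma adjusted p = 0.7997). The median of the 59 was 0.13 against all 16 wild-type libraries, -0.34 with the column run in the model, and -0.05 after rescaling to the CD3 genes, so its sign depended on the wild-type libraries it was set against and on the scaling. Against the 4 wild-type libraries of run 2, all 3 c-Maf cKO libraries were below in 6 of 59 members, where 4.07% of all genes were, and above in 2, Hist1h2bn and Hist4h4, where 3.06% of genes were. The 6 were Hist1h2ao, Hist1h4d, Hist1h3i, Hist1h3c, Hist1h3h and Hist1h2bk. Hist1h2ao was at 236.92, 249.02 and 314.05 in c-Maf cKO and at 419.61 or more in those 4 wild-type libraries, and Hist1h3c at 3.19, 4.51 and 4.84 against 9.14 or more.

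Between the knockouts, 5 members were called in at least 1 comparison. Hist1h4c was higher in the cDKO, at 5.3, 12.11 and 8.3 in C2, A1 and A2, than in Prdm1 cKO (log2 difference 1.96, SE 0.40, limma adjusted p = 0.0276). It was the only member of the 59 called between these groups, where 0.392% of all genes were called in either direction, and the groups did not overlap. That call was lost without A9, A1 or A2 and with the column run in the model, where the difference was 2.15 (SE 0.50, limma adjusted p = 0.194). Against c-Maf cKO the cDKO was lower in Hist1h3d (-2.38, SE 0.61, limma adjusted p = 0.0151) and Hist1h2ag (-1.93, SE 0.57, limma adjusted p = 0.0338), where 5.61% of all genes were lower. Hist1h3d was at 7.23, 4.82 and 3.46 and Hist1h2ag at 11.79, 8.36 and 8.17 in c-Maf cKO, and neither overlapped the cDKO. Against c-Maf cKO, Prdm1 cKO was lower in 4 members, Hist1h3d, Hist1h2ag, Hist1h2bj and Hist1h1b, where 0.939% of all genes were lower. Their log2 differences ran from -2.60 to -2.36, with limma adjusted p between 0.0383 and 0.0480. With the column run in the model 0 members were called in either of these comparisons. Without C2 the cDKO differed from c-Maf cKO in 7 members, without A1, A2 or B10 in 0, and without B11 or C1 in 1. Prdm1 cKO differed from c-Maf cKO in 0 members without A9, B10, B11 or C1, in 1 without A6, A8 or A1, and in 2 without A11, A12, B9, B1 or B2. Among all genes, leaving out 1 library gave 432 to 1315 calls for the cDKO against c-Maf cKO. For Prdm1 cKO against c-Maf cKO it gave 5 to 319.

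Of the core and linker histone variants whose synthesis is not tied to S phase, 9 of 16 in the table were tested. H2afz, which encodes H2A.Z, had a mean of 526 and was lower in the cDKO (log2 difference -0.41, SE 0.11, limma adjusted p = 0.0107). Cenpa, the centromeric H3, was lower in the cDKO (-0.94, limma adjusted p = 0.0147) and in Prdm1 cKO (-0.91, limma adjusted p = 0.0424). H3f3b, an H3.3 gene with a mean of 386, had differences of 0.11 in Prdm1 cKO and 0.06 in the cDKO (limma adjusted p = 0.671 and 0.813). The summed variants ran from 1253 to 1683 in wild type and from 1317 to 1419 in Prdm1 cKO, a narrower range than that of the members of the Hist clusters.

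Of 18 tested genes for histone gene transcription and mRNA processing 1 was lower in Prdm1 cKO, Npat, the factor that switches on histone genes at the start of S phase (log2 difference -0.88, SE 0.21, limma adjusted p = 0.0240), and 0 in the cDKO. Slbp, whose product binds the stem-loop, had a mean of 52.5 and a difference of -0.14 (SE 0.19, limma adjusted p = 0.725) in Prdm1 cKO. Of 22 histone chaperones and related genes 1 was lower in Prdm1 cKO, Chaf1a, a subunit of the factor that places H3 and H4 on new DNA (-1.13, limma adjusted p = 0.0212). In the cDKO 5 were lower, among them Chaf1a, Hat1 and Asf1b. Of all genes 1.87% were lower in Prdm1 cKO and 6.85% in the cDKO.

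S phase genes were lower in both Prdm1-deficient groups. Of 28, 11 were lower and 0 higher in Prdm1 cKO and 19 lower and 0 higher in the cDKO, each with a median log2 difference of -0.79. The shares lower over all genes were 1.87% in Prdm1 cKO and 6.85% in the cDKO. Mcm3, a subunit of the replicative helicase, differed by -1.10 in Prdm1 cKO (SE 0.23, limma adjusted p = 0.00955), and Tk1, a thymidine kinase, by -1.24 in the cDKO (SE 0.27, limma adjusted p = 0.00319). In c-Maf cKO 0 of 28 were called, with a median of 0.34 that turned to -0.12 with the column run in the model. Of 20 G2 and M phase genes, 2 were lower in Prdm1 cKO and 14 in the cDKO. With libraries rescaled to the CD3 genes 0 of the 28 S phase genes were called in either group, and the medians were -0.45 and -0.51. The share of all genes called after this rescaling is not given here. Without A9, 2 of the 28 were lower in Prdm1 cKO, and without A6 1 was. With the column run in the model 3 were lower in Prdm1 cKO and 5 in the cDKO. The share of all genes lower in Prdm1 cKO was 0.403% without A9, 0.312% without A6 and 0.302% with the column run. In the cDKO it was 3.58% with the column run.

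In the cDKO, then, most S phase genes and 2 histone genes were called. The mean log2(signal + 1) of the S phase genes was 4.202 in C2, 3.9998 in A1 and 3.74 in A2, against 4.04 to 5.23 in wild type. The histone sum of C2 was 1001, above the wild-type median of 791. In the wild type of run 3 the S phase means were 4.33 to 4.68, with histone sums of 613 to 922. Wild-type library B4 of that run held both the lowest S phase mean, 4.33, and the highest histone sum, 922. Prdm1 cKO libraries had S phase means of 4.27, 3.77 and 3.96 with histone sums of 536, 296 and 310. The 4 wild-type libraries of run 2 were at 4.90 to 5.23 and held the 4 highest histone sums. The 3 c-Maf cKO libraries lay in the same range of S phase means, at 4.95, 5.08 and 5.05, with lower histone sums of 854, 742 and 941.

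**Figure D4:**
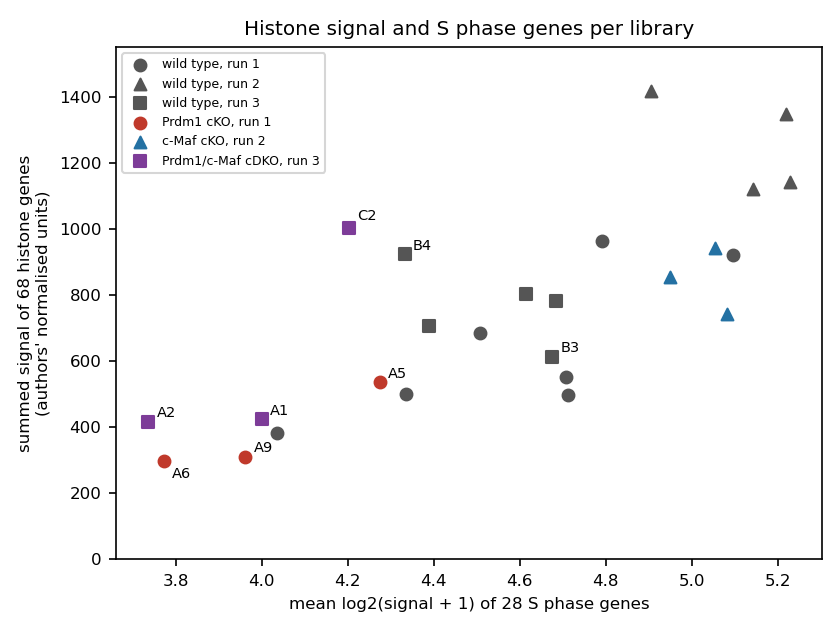
Summed signal of the 68 histone genes (vertical axis, authors' normalised units) against the mean log2(signal + 1) of 28 S phase genes (horizontal axis), 1 point per library, with colour for genotype and marker for column run. Points share library and scaling, so no correlation is given; cDKO library C2, at 4.202 and 1001, lies above the other cDKO and all Prdm1 cKO libraries.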

How the data were processed

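The submitters' processing notes name TopHat, RSEM and DESeq and the mouse build mm9; no version or filter is stated there. The authors deposited 1 table with a normalised signal per gene symbol and library, on an unstated scale. Values were used as deposited, and 0 columns were left over. Columns were mapped to groups by the genotype in their name.

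Genes at 1 or more in at least 3 columns (12251) were tested with limma 3.58.1 in R 4.3.3 on log2(value + 1), all 25 libraries in 1 model, with Benjamini-Hochberg adjustment over all genes and a threshold of 0.05. The script was tested on simulated data. A fold change on this scale understates the change of low genes. The 6 comparisons were each group against wild type and between knockouts. Named members were the 12 of highest mean, every member called and those next to the filter; genes of other lists were those with the smallest adjusted p or the highest mean, and Hist1h1e, Hist4h4, Hist2h2ac, Hist1h3a, Hist1h2bn, Hist1h2bk, Hist1h2ae, Hist1h4i and Hist3h2a were added after their values were seen. The members and lists were chosen with earlier results of these data known. Sequences came from GENCODE M21 and RefSeq; protein sequences were not used here. Alternatives were other pseudocounts, filters, scalings, covariates, weights and leaving out each library; the fit by run without C2 and the wild-type F test were chosen after seeing the data.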

Additional observations from a re-analysis of the deposited data

How the results depend on the processing

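The read depth behind the signal is unknown, so it is not known which low members were limited by counting, and 3 libraries a knockout group limit every comparison. No paired analysis was possible because the columns carry no replicate number that ties them to the labels. Numbers of members called, in the order cDKO against wild type, Prdm1 cKO against wild type, cDKO against Prdm1 cKO, cDKO against c-Maf cKO and Prdm1 cKO against c-Maf cKO, were 2, 8, 1, 2 and 4. With the column run as covariate they were 0, 3, 0, 0 and 0, with the code letter 0, 1, 2, 0 and 0, and with the marker scores 1, 0, 0, 1 and 0. With a pseudocount of 10 they fell to 0 and 4 against wild type and to 1 in each comparison with c-Maf cKO. With no filter the cDKO had 0 against wild type and 1 against c-Maf cKO, and Prdm1 cKO 0 against c-Maf cKO. With a filter of 10 the counts were 1 and 5 against wild type, where 22 members were tested, 0 for the cDKO against Prdm1 cKO and 2 for Prdm1 cKO against c-Maf cKO. With array quality weights they were 14 for the cDKO against wild type, 8 for the cDKO against c-Maf cKO and 0 for Prdm1 cKO against c-Maf cKO. Some fits had fewer members tested or fewer samples. The cause of the changed counts was not tested for any fit. Leaving out 1 library gave 0 to 5, 0 to 13, 0 to 1, 0 to 7 and 0 to 6, in the same order. Over all genes it gave 512 to 1705, 78 to 684, 3 to 141, 432 to 1315 and 5 to 319 calls. The fit by run without C2 gave 2 and 5 members against wild type and 0 in the other comparisons. The count for c-Maf cKO against wild type was 0 throughout. Against wild type, the share of all genes called in the cDKO and in Prdm1 cKO was 11.9% and 3.45% in the main fit. It was 7.97% and 0.482% with the column run, 5.64% and 0.0571% with the marker scores, and 21.5% and 2.38% with array quality weights. That share is not given here for the fits with the code letter, other pseudocounts or filters, or by run without C2. Their member counts therefore have no baseline over all genes. Rescaling to the CD3 genes moved the mean histone sum of c-Maf cKO from 846 to 676, and that of wild type from 834 to 784.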
